A study of Xenopus laevis with 8 samples.

Results

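Ectodermal explants of Xenopus laevis that expressed Chordin together with Pinhead were compared with control explants. The comparison rests on 4 of the 8 RNA-sequencing libraries of the study: libraries 7 and 8 for Chordin plus Pinhead, and libraries 1 and 2 for controls. The remaining libraries, 3 and 4 from explants expressing Chordin and 5 and 6 from explants expressing Flag-tagged Pinhead, shared 1 statistical fit with them and serve below only to show where the pair of proteins differed from each protein alone. All explants were of wild-type genotype, were cultured after isolation and were taken as whole pieces of tissue at the early neurula stage. The labels do not give the amount of each protein's RNA, the number of explants or embryos per library, what the controls received, or whether libraries of a group came from separate clutches. The p-values therefore measure only the spread between these libraries.

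Ectoderm that receives bone morphogenetic protein (BMP) signals becomes epidermis, which in the frog embryo contains keratin-rich surface cells, multiciliated cells and ionocytes. Chordin is a secreted protein of the Spemann organizer that binds BMP ligands and keeps them from their receptors, and ectoderm shielded from BMP becomes neural tissue of anterior character and cement gland. Pinhead is a secreted protein studied in the frog for its part in mesoderm formation together with fibroblast growth factor (FGF) signals. The species is allotetraploid, so most genes exist as a long and a short copy, written .L and .S; reads from near-identical stretches can be shared between copies, and values of a single copy are uncertain to that extent.

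Levels are given in CPM, the usual unit of read counts relative to library size, here with the size scaled by edgeR's TMM factors, and values for the libraries are given in the order 7, 8 for Chordin plus Pinhead and 1, 2 for controls. Libraries 7 and 8 held 15354108 and 16990883 counts, against 17455372 and 16049183 in the controls, so 1 CPM stood for 15.2 to 17.9 counts. A gene was called when its adjusted p in edgeR's quasi-likelihood test was under 0.05, over 23130 genes tested of 45035 in the table. The expressed genes matched the labels: chrd.S stood at 793 and 934 CPM in Chordin plus Pinhead explants against 0.483 and 0.656 CPM in controls, and pnhd.L at 429 and 486 CPM against 1.21 and 0.328 CPM. The hox, replication, ribosomal, stress, secretory and other list members that serve below as examples beyond the key genes of a list, and all members named for moving against their list, were chosen after their values were seen. The copies chrd.1.L and chrd.2.L stood at 16.8 and 37.6 CPM and at 16.9 and 39.0 CPM with both proteins. With Chordin alone they stood at 2.33 and 3.28 CPM and at 2.21 and 2.13 CPM, whereas chrd.S stood at 816 and 794 CPM. The counts do not separate introduced from endogenous transcripts, and which of them these copies reflect was not tested.

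Most of the transcriptome differed between the groups. Of the 23130 genes tested, 15118 (65.4%) were called, 7691 (33.3%) of them higher and 7427 (32.1%) lower in Chordin plus Pinhead explants. A change of at least 2-fold was reached by 3996 called genes that were higher (17.3%) and 4958 that were lower (21.4%), and a change of at least 8-fold by 1346 (5.82%) and 1191 (5.15%). The median log2 fold change was 1.05 among genes called higher, -1.42 among genes called lower and 0.03 over all genes tested. Scaling by total counts alone moved that last value to 0.18, and upper-quartile scaling to 0.12, so small changes carry an offset of this size that depends on the scaling.

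**Figure D1:**
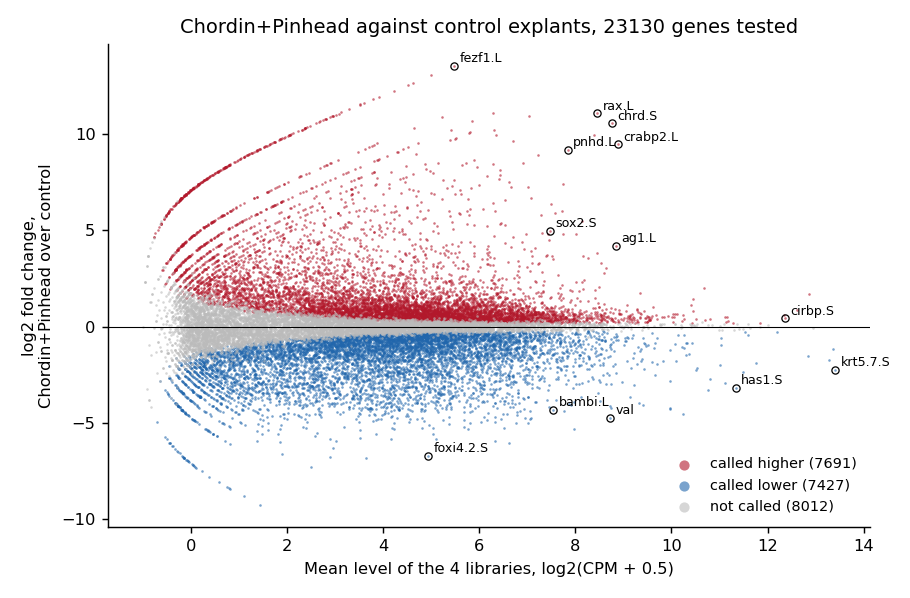
Log2 fold change of Chordin+Pinhead over control explants (y axis) against the mean level of the 4 libraries as log2(CPM + 0.5) (x axis); each point is 1 of 23130 genes, colored by its call, and circled genes are named. The arcs on the left are genes with a handful of counts; fezf1.L, at 0 in both controls, is near the top, and the keratin krt5.7.S has the highest level of the genes circled and lies below 0.

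Libraries 7 and 8 differed from each other more than the libraries of any other group. Among genes with a mean of at least 5 CPM in the group, the standard deviation of the log2 ratio between the libraries was 0.407 in Chordin plus Pinhead explants, against 0.178 in controls, 0.171 with Chordin and 0.256 with Pinhead. A difference of at least 2-fold between the libraries was found for 348 of 14200 genes (2.45%) in Chordin plus Pinhead explants and for 7 of 14307 (0.0489%) in controls. Of the 84 such genes that were higher in library 8, 72 were called higher than control, and of the 264 that were higher in library 7, 252 were called lower than control. Library 8 thus lay farther from the controls than library 7 for 64.4% of called-higher and 70.9% of called-lower genes at this level.

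The difference at the low end had a regular form. For 94 genes with at least 50 CPM in controls and at most 2% of the control mean in library 8, library 7 held a median of 10.3% of the control mean (quartiles 7.19% and 12.5%), and 84 of them lay between 5% and 20%. The same genes stood at medians of 0.599% and 0.642% in the Chordin libraries and 80.7% and 80.3% in the Pinhead libraries. These genes were selected after their values were seen. An example is val, at 62.1 and 0.112 CPM in Chordin plus Pinhead explants against 765 and 869 CPM in controls; the dopamine transporter slc6a3.S stood at 37.5 and 0 CPM against 310 and 352 CPM. Both calls were lost when the 4 libraries were fitted alone, and that of slc6a3.S also in DESeq2. The values do not tell whether library 7 holds some RNA of control explants, and this was not tested. It bears on the library 7 levels given below of any gene far higher in controls, and on their comparison with Chordin explants. Epidermal, multiciliated cell and ionocyte genes are among these, as are dlx2.L and the BMP pathway genes szl.L and bambi.S. Of the 94 genes, 4 were in the epidermis list, 10 in the multiciliated cell list and 9 in the ionocyte list.

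**Figure D2:**
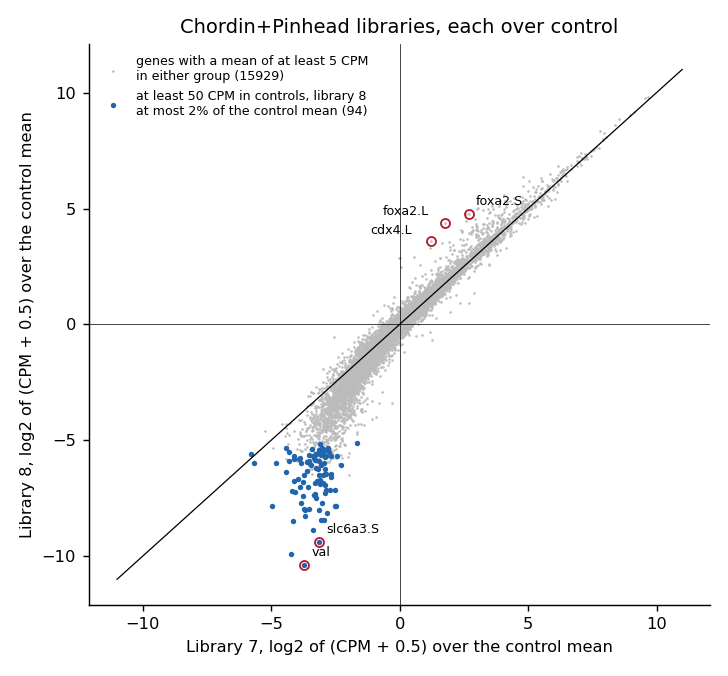
Level of each gene over the control mean, as the log2 ratio of (CPM + 0.5), in library 7 (x axis) and library 8 (y axis) of the Chordin+Pinhead group; the diagonal marks equal values. The 94 blue genes, at least 50 CPM in controls and at most 2% of that in library 8, form a vertical band. Library 7 held a median of 10.3% of their control level (quartiles 7.19% and 12.5%, range 1.15% to 31.3%). The genes foxa2.L, foxa2.S and cdx4.L lie above the diagonal.

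Nearly every neural plate gene rose. Of 73 neural plate and progenitor genes tested, 70 (95.9%) were called higher and none lower, with a median log2 fold change of 4.83; their summed level was 8334 and 8797 CPM in Chordin plus Pinhead explants against 1352 and 1208 CPM in controls. The transcription factor sox2.S, which maintains neural progenitors, had 332 and 350 CPM against 13.0 and 8.46 CPM in controls (log2 fold change 4.99 ± 0.31 SE, adjusted p = 1.57e-06). The early neural gene zic1.S reached 157 and 158 CPM against 2.84 and 2.03 CPM (6.0 ± 0.25, adjusted p = 1.52e-07). Both genes had nearly the same level in libraries 7 and 8. The neural cell adhesion molecule ncam1.L likewise stood at 162 and 178 CPM against 3.68 and 4.40 CPM (5.39 ± 0.13, adjusted p = 9.84e-09).

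Genes of the forebrain and eye field, the most anterior neural plate, rose by large factors. Of 69 forebrain and eye field genes tested, 58 (84.1%) were called higher and 6 lower, with a median log2 fold change of 6.0. The eye field gene six3.L was at 370 and 454 CPM in Chordin plus Pinhead explants against 6.28 and 6.63 CPM in controls (6.0 ± 0.25, adjusted p = 1.52e-07), and pax6.L, which is required for eye formation, at 194 and 196 CPM against 1.09 and 0.984 CPM (7.54 ± 0.14, adjusted p = 4.18e-09). The gene otx2.L, expressed across the anterior neural plate, had a higher background and a smaller change, 249 and 255 CPM against 16.5 and 16 CPM (3.95 ± 0.17, adjusted p = 1.78e-07). The forebrain gene fezf1.L had 86.7 and 88.9 CPM and no count in either control, at least 931-fold higher when 3 counts over the control group are taken as the floor. Among the 6 members called lower, named here after their values were seen, were dlx2.L (22.6 and 2.85 CPM against 209 and 193 CPM) and tbx2.L (6.73 and 3.47 CPM against 75 and 67.2 CPM); both are also expressed in non-neural ectoderm.

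Genes of the midbrain and hindbrain were present as well. Of 71 tested, 52 (73.2%) were called higher and 11 lower, with a median log2 fold change of 3.42. The midbrain-hindbrain boundary gene en2.S was at 9.72 and 8.17 CPM in Chordin plus Pinhead explants and had no count in controls, at least 94.4-fold higher. The ligand wnt1.L, expressed at the same boundary and along the dorsal midline, was at 13.6 and 14.0 CPM against 0.0603 and 0 CPM, a single control count (ratio 440, 95% counting interval 78.5 to 17406). The hindbrain gene egr2.L, which marks rhombomeres, stood at 5.79 and 13.2 CPM against 0.241 and 0.590 CPM (adjusted p = 9.80e-05). Some hindbrain genes moved the other way. The segment gene mafb.L fell to 5.86 and 6.77 CPM against 15.6 and 17.5 CPM in controls (-1.39 ± 0.17, adjusted p = 7.59e-05), and meis3.S, a homeobox cofactor, to 21 and 21 CPM against 94.7 and 95.5 CPM (-2.18 ± 0.09, adjusted p = 1.91e-07).

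Differentiation genes of neurons were mixed. Of 72 tested, 47 (65.3%) were called higher and 15 lower, with a median log2 fold change of 2.71, yet the summed level of the list was 1057 and 1216 CPM in Chordin plus Pinhead explants and 1170 and 1185 CPM in controls. The count of lower members was 8 without library 2. The proneural gene neurog2.S had 5.54 and 8.89 CPM against 0.121 and 0.0656 CPM (ratio 77.5, 95% counting interval 26.2 to 378), and the RNA-binding protein elavl3.L of early neurons 34.8 and 51.8 CPM against 5.73 and 6.30 CPM (2.85 ± 0.21, adjusted p = 3.45e-06). The later factor neurod1.L stood at 0.810 and 0.559 CPM, with no control count. Of the members called lower, gad1.2.L, whose product makes the transmitter GABA, took the largest share of counts, at 328 and 345 CPM against 858 and 864 CPM (-1.35 ± 0.09, adjusted p = 1.59e-06).

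The cement gland, the adhesive organ in front of the forebrain, showed raised secreted products. Of 20 genes tested 11 were called higher and 4 lower. The secreted anterior gradient protein ag1.L was at 836 and 901 CPM in Chordin plus Pinhead explants against 50.6 and 42.4 CPM in controls (4.22 ± 0.12, adjusted p = 2.44e-08), and agr2.L at 215 and 194 CPM against 20.5 and 25.6 CPM (3.15 ± 0.13, adjusted p = 1.25e-07). The secretory-cell factors spdef.S (11.2 and 9.45 CPM against 49.5 and 55.6 CPM) and xbp1.L (59.7 and 50.1 CPM against 181 and 143 CPM) were called lower; mucus-secreting cells of the epidermis use such factors too.

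Beside neural tissue, genes of the dorsal mesoderm were raised. Of 38 notochord genes tested, 28 (73.7%) were called higher and 5 lower, with a median log2 fold change of 1.98. The homeobox gene not.L, which specifies notochord, was at 10.5 and 11 CPM in Chordin plus Pinhead explants against 0.543 and 0.525 CPM in controls (4.31 ± 0.31, adjusted p = 3.48e-06), and not.S was at 30.5 and 43.7 CPM against 0.845 and 0.262 CPM. The forkhead gene foxa4.L of notochord and floor plate had 5.48 and 16.9 CPM and no control count, at least 122-fold higher. The type II collagen gene col2a1.L, a component of the notochord sheath, was at 8.47 and 18 CPM against 0.845 and 1.05 CPM (3.80 ± 0.45, adjusted p = 7.19e-05; 3.19 without library 8). Library 8 held the higher value for every gene named here, and the median log2 ratio of library 8 over library 7 was 0.74 among the 24 notochord genes with a mean of at least 5 CPM in Chordin plus Pinhead explants.

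Brachyury, the T-box gene of early mesoderm and notochord, was not called in its copy t.L, and the call of its copy t.S was uncertain. Its copy t.L was at 0.0623 and 0.112 CPM in Chordin plus Pinhead explants against 0.0603 and 0 CPM in controls, near the detection limit. The copy t.S was at 0.997 and 4.14 CPM against 0.543 and 0.787 CPM (1.98 ± 0.73, adjusted p = 0.0379), a call that was lost without library 1, 2, 3, 4 or 8 in turn; the value was 0.62 without library 8 and 2.61 without library 7. In explants with Pinhead alone t.L stood at 50.5 and 70.2 CPM. The related gene t2.S, named here after its values were seen, was raised. It had 4.24 and 14.6 CPM in Chordin plus Pinhead explants and no count in controls, at least 103-fold higher. With Pinhead alone t2.S stood at 5.80 and 9.84 CPM, and with Chordin alone it had no count.

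Most genes of the Spemann organizer and prechordal plate rose too. Of 39 tested, 30 (76.9%) were called higher and 4 lower, with a median log2 fold change of 3.95. The organizer homeobox gene gsc.L had 3.99 and 7.38 CPM and no count in controls (at least 61.3-fold higher), and admp.L, a BMP-family ligand made in the organizer, 7.91 and 23.7 CPM and no count in controls (at least 172-fold higher); the call of admp.L was lost in DESeq2. The BMP antagonists nog.L and fst.L stood at 4.86 and 5.2 CPM and at 4.80 and 8.50 CPM, against 0.0603 and 0.197 CPM and no count in controls. The Wnt antagonist dkk1.S was not called, at 2.06 and 2.80 CPM against 2.90 and 4.2 CPM (-0.54 ± 0.33, adjusted p = 0.182), and the head inducer cer1 had at most 0.262 CPM in any of the 4 libraries, too few counts to test. Of the 4 members called lower, 3 were copies of lmo4, a LIM-domain protein gene also used in epidermis, such as lmo4.2.S (46.9 and 43.2 CPM against 273 and 264 CPM), and the last was hhex.L.

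Many muscle and somite genes were higher as well, at low levels, but not all key genes of these lists. Of 60 skeletal muscle genes tested, 39 (65.0%) were called higher and 9 lower (median log2 fold change 2.41), and of 66 paraxial mesoderm and somite genes 38 (57.6%) were higher and 5 lower (median 2.17). The muscle determination factor myod1.S had 3.49 and 7.83 CPM and no count in controls, at least 61.3-fold higher, and the cardiac-type actin actc1.S, expressed in embryonic skeletal muscle, had 14.1 and 37.3 CPM against 0.724 and 0.656 CPM (5.21 ± 0.53, adjusted p = 2.67e-05; 4.37 without library 8). The myosin light chain myl1.S had 3.24 and 6.43 CPM and no control count, and its call was lost in DESeq2. The muscle genes myf5.L and ckm.S (-0.57, adjusted p = 0.356) were not called, whereas ckm.L was called higher (1.02, adjusted p = 0.0101). Of key somite genes, tbx6.L (1.29, adjusted p = 0.178), msgn1.L (1.69, adjusted p = 0.349) and meox2.L (2.46, adjusted p = 0.123) were not called, nor were their .S copies. The genes pcdh8.2.L and pcdh8.2.S were not called either, but pcdh8.L and pcdh8.S were called higher. The summed level of the muscle list nevertheless was 321 and 482 CPM in Chordin plus Pinhead explants and 378 and 382 CPM in controls, and 47 of the 107 muscle genes in the table had too few counts to be tested. Of 63 genes of early mesoderm in general, 30 (47.6%) were called higher, 6 lower and 27 not called.

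Genes that respond to Hedgehog, the ligand of notochord and floor plate that patterns the ventral neural tube, rose, and so did the ligand. The gene shh.L stood at 5.30 and 17.7 CPM in Chordin plus Pinhead explants against 0.845 and 1.25 CPM in controls (3.46 ± 0.61, adjusted p = 0.00121; 2.37 without library 8 and 4.06 without library 7). Its receptor and target ptch1.L was at 19.3 and 22.4 CPM against 1.27 and 0.984 CPM (4.2 ± 0.20, adjusted p = 3.70e-07), and the target transcription factor gli1.S at 17.4 and 20.8 CPM against 0 and 0.262 CPM (adjusted p = 1.44e-06). The target genes differed far less between libraries 7 and 8 than the ligand did. With Chordin alone shh.L had no count, while ptch1.L stood at 12.5 and 11.7 CPM and gli1.S at 8.64 and 10.4 CPM. Copies of the floor plate gene foxa2 were uneven: foxa2.L had 1.18 and 10 CPM and no count in controls, and foxa2.S had 3.55 and 16.5 CPM against 0.0603 and 0.197 CPM. Of 47 floor plate and Hedgehog genes tested, 34 (72.3%) were called higher and 6 lower; 4 of the 6 were copies of foxj1, the regulator of motile cilia, which multiciliated epidermal cells share with floor plate, the others being foxa1.L and a low-level copy of the Hedgehog-binding protein hhip.

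**Figure D3:**
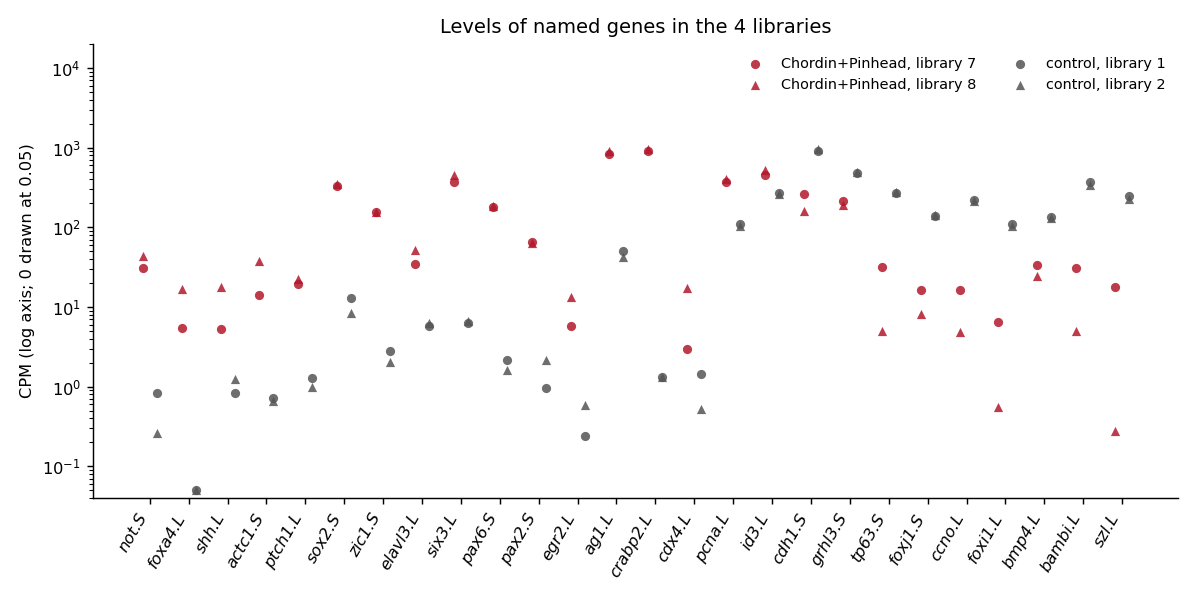
CPM on a log axis of 26 named genes in Chordin+Pinhead libraries 7 and 8 (red, left of each pair) and control libraries 1 and 2 (grey); a value of 0 is drawn at 0.05. The 4 neural genes sox2.S, zic1.S, pax6.S and pax2.S have nearly equal red points, whereas foxa4.L, shh.L and cdx4.L have the higher point in library 8, and tp63.S, foxi1.L, bambi.L and szl.L have it in library 7.

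Part of the posterior genes were raised, to low levels that differed between the libraries. Of 33 posterior body axis genes 17 were called higher and 2 lower (1 to 3 over the libraries left out). Those shares were 51.5% and 6.06%, against 33.3% and 32.1% over all genes tested. Of 54 hox genes tested, 31 (57.4%) were called higher and 10 lower, with 16 higher when the 4 libraries were fitted alone. Among the genes called higher was hoxb7.L at 3.11 and 6.66 CPM in Chordin plus Pinhead explants with no count in controls. Among those called lower was hoxa3.L at 1.18 and 1.79 CPM against 10.7 and 8.79 CPM (-2.70 ± 0.31, adjusted p = 9.99e-05). Summed, the hox genes stood at 61.6 and 154 CPM against 156 and 142 CPM, with library 8 at the level of the controls. The caudal gene cdx4.L, an activator of posterior hox genes, was at 2.99 and 17.5 CPM against 1.45 and 0.525 CPM (3.36 ± 0.80, adjusted p = 0.00481; 1.60 without library 8, 4.09 without library 7 and 4.29 without library 1). The key genes cdx4.S (2.9, adjusted p = 0.00569) and cdx1.S (3.3, adjusted p = 0.00211) were also called higher. Key genes not called were cdx1.L (1.36, adjusted p = 0.278), evx1.L (-0.81, adjusted p = 0.44) and evx1.S (-3.25, adjusted p = 0.208). The value of cdx1.L was -1.46 without library 8.

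The epidermal program fell but did not vanish. Of 127 epidermis genes tested, 95 (74.8%) were called lower and 15 higher, with a median log2 fold change of -1.60; their summed level was 29396 and 21507 CPM in Chordin plus Pinhead explants against 76607 and 77211 CPM in controls. The larval keratin krt5.7.S was at 4911 and 2734 CPM against 17618 and 18200 CPM (-2.23 ± 0.21, adjusted p = 1.86e-05), and has1.S, which makes hyaluronan, at 613 and 425 CPM against 4834 and 4465 CPM (-3.16 ± 0.15, adjusted p = 3.60e-07). The outer-layer regulator grhl3.S fell to 214 and 189 CPM against 486 and 494 CPM (-1.28 ± 0.10, adjusted p = 4.25e-06), and dlx3.S, a BMP-induced factor of non-neural ectoderm, to 94.3 and 59.4 CPM against 331 and 338 CPM (-2.12 ± 0.18, adjusted p = 8.97e-06). The basal-cell regulator tp63.S fell further, to 32.2 and 4.98 CPM against 268 and 277 CPM (-3.89 ± 0.60, adjusted p = 0.00036; -5.79 without library 7 and -3.05 without library 8). In this tissue of mixed cells, fewer cells of a type and less RNA per cell cannot be told apart.

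Some members of the epidermis list went the other way, and are named here after their values were seen. The simple-epithelium keratin krt18.S was at 499 and 556 CPM in Chordin plus Pinhead explants against 44.3 and 37.7 CPM in controls (3.68 ± 0.12, adjusted p = 4.48e-08), and the cadherin cdh3.L at 235 and 286 CPM against 92.9 and 90.6 CPM (1.51 ± 0.11, adjusted p = 3.50e-06). The copies of E-cadherin, the adhesion molecule of epidermis, split. The copy cdh1.S fell to 260 and 161 CPM against 916 and 955 CPM (-2.15 ± 0.19, adjusted p = 1.02e-05), whereas cdh1.L rose to 5.23 and 5.71 CPM against 0.966 and 0.656 CPM (2.74 ± 0.29, adjusted p = 3.17e-05).

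Multiciliated cells and ionocytes, which are scattered through the epidermis, fell in their transcripts. Of 113 multiciliated cell genes tested, 107 (94.7%) were called lower and 5 higher, with a median log2 fold change of -3.18 and a summed level of 1374 and 897 CPM against 6407 and 6717 CPM. The ciliogenic regulator foxj1.L fell to 11.3 and 12.6 CPM against 73.3 and 67.7 CPM (-2.56 ± 0.11, adjusted p = 2.35e-07), and ccno.L, needed to multiply basal bodies, to 16.3 and 4.81 CPM against 220 and 216 CPM (-4.38 ± 0.41, adjusted p = 1.66e-05; -5.52 without library 7 and -3.71 without library 8). Those called higher were both copies each of the transcription factor genes e2f4 and rfx3, and the dynein gene dnah11.L. The level of dnah11.L was 35.3 and 38.7 CPM against 13.5 and 14.0 CPM (1.43 ± 0.14, adjusted p = 2.33e-05). Of 47 ionocyte genes, 41 (87.2%) were called lower and 3 higher, with a median of -2.60. Their master regulator foxi1.L was at 6.42 and 0.559 CPM against 110 and 104 CPM, and the proton pump subunit atp6v1b1.L at 33.6 and 1.06 CPM against 226 and 218 CPM. For both genes the groups did not overlap, as for 41.3% of all genes tested in this direction, and library 7 held far more than library 8. The log2 fold change of foxi1.L was -7.58 without library 7 and -4.03 without library 8, and that of atp6v1b1.L -7.72 and -2.69.

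Genes of the BMP pathway itself were mostly called lower. Of 92 ligands, receptors, inhibitors and targets tested, 57 (62.0%) were called lower and 25 (27.2%) higher, with a median log2 fold change of -1.50. Over all genes tested, 32.1% were called lower and 33.3% higher. Among ligands, bmp4.L fell to 33.8 and 24.3 CPM in Chordin plus Pinhead explants against 135 and 131 CPM in controls (-2.20 ± 0.15, adjusted p = 2.27e-06) and bmp7.2.L to 5.98 and 6.49 CPM against 149 and 127 CPM (-4.47 ± 0.15, adjusted p = 4.25e-08). Feedback inhibitors and targets fell too: szl.L, a secreted inhibitor of Chordin-cleaving proteases, was at 17.9 and 0.280 CPM against 248 and 229 CPM, bambi.S, a pseudoreceptor, at 26.2 and 9.17 CPM against 272 and 261 CPM, and the homeobox target msx1.L at 47.3 and 43.1 CPM against 122 and 113 CPM (-1.38 ± 0.13, adjusted p = 1.42e-05). The log2 fold change of szl.L was -9.72 without library 7 and -3.70 without library 8, and that of bambi.S -4.88 and -3.32. Levels of both genes in library 7 carry the doubt stated above. On the other side, the receptor bmpr1b.L had 44.7 and 51.4 CPM and no count in controls (at least 511-fold higher), and rgma.L, a BMP co-receptor of neural tissue, was at 126 and 166 CPM against 12.5 and 11.8 CPM (3.59 ± 0.16, adjusted p = 2.02e-07). The classical BMP target id3.L was among those called higher, at 456 and 517 CPM against 266 and 263 CPM (0.88 ± 0.09, adjusted p = 2.41e-05). Members called higher included the BMP antagonist genes nog and fst described above.

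Other signalling pathways gained transcripts, each with members that fell. Of 116 Wnt pathway genes, 73 (62.9%) were called higher and 21 lower. The secreted Wnt inhibitor sfrp2.L was at 95.4 and 122 CPM in Chordin plus Pinhead explants against 1.63 and 1.51 CPM in controls (6.11 ± 0.17, adjusted p = 2.27e-08). A feedback target of Wnt, axin2.L, was at 9.47 and 14.2 CPM against 0.724 and 0.590 CPM (4.15 ± 0.35, adjusted p = 8.04e-06). Its other copy, axin2.S, was not called (0.19, adjusted p = 0.69). The receptor fzd6.L and the transducer dvl3.L fell to 15.6 and 11 CPM against 128 and 119 CPM and to 24.2 and 18.5 CPM against 165 and 169 CPM. Of 66 FGF and ERK pathway genes, 46 (69.7%) were called higher and 7 lower. The receptor fgfr4.L was at 130 and 137 CPM against 15.8 and 13.1 CPM (3.21 ± 0.11, adjusted p = 6.10e-08), the ligand fgf8.L at 24.7 and 26.3 CPM against 0.362 and 0.394 CPM (6.05 ± 0.33, adjusted p = 6.75e-07) and the feedback inhibitor spry2.L at 14.5 and 15.8 CPM against 1.51 and 2.76 CPM (2.84 ± 0.28, adjusted p = 2.11e-05). Another feedback gene of this pathway, dusp6.L, had 41.8 and 39.0 CPM against 56.2 and 52.8 CPM, and its call (-0.43 ± 0.13, adjusted p = 0.0186) was lost with total-count scaling and without library 1, 2 or 8. Of 73 Notch pathway genes, 41 (56.2%) were called higher and 13 lower. The receptor notch1.L was at 118 and 122 CPM against 28.2 and 31.1 CPM (2.02 ± 0.12, adjusted p = 1.33e-06).

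Some retinoic acid genes differed by large factors. Of 34 list members tested, 14 (41.2%) were called higher and 9 (26.5%) lower, against 33.3% and 32.1% over all genes tested. The binding protein crabp2.L, which carries retinoic acid inside the cell, stood at 921 and 961 CPM in Chordin plus Pinhead explants against 1.33 and 1.31 CPM in controls (9.47 ± 0.18, adjusted p = 4.18e-09), and crabp2.S at 240 and 295 CPM against 2.29 and 2.95 CPM (6.67 ± 0.21, adjusted p = 3.38e-08). The degrading enzyme cyp26c1.L was at 138 and 170 CPM against 0.0603 and 0.0656 CPM, 2 control counts in all (ratio 2458, 95% counting interval 680 to 20302). The synthesizing enzyme aldh1a2.L was at 16.7 and 15.9 CPM against 1.15 and 2.17 CPM (3.31 ± 0.21, adjusted p = 1.73e-06). Enzymes for making and for removing the ligand thus were both higher than in controls.

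Genes of DNA replication and the cell cycle were raised by small factors across the list. Of 134 tested, 90 (67.2%) were called higher and 15 (11.2%) lower, but only 36 of the higher ones reached 2-fold, and the median log2 fold change was 0.62. The replication clamp pcna.L was at 366 and 400 CPM in Chordin plus Pinhead explants against 109 and 105 CPM in controls (1.84 ± 0.13, adjusted p = 3.08e-06), and the helicase subunits mcm4.S and mcm6.2.S at 128 and 138 CPM against 22.4 and 22.4 CPM and at 242 and 236 CPM against 46.2 and 50.3 CPM. Members called lower included the cyclin ccna1.S (6.54 and 0.336 CPM against 19.8 and 23.4 CPM, a call lost in DESeq2) and the kinase wee2.S (5.67 and 3.47 CPM against 20.3 and 20.8 CPM), both known for roles in oocytes and early embryos. Ribosomal protein genes shifted more evenly still: 83 of 101 were called higher, 47 without library 2, but none reached 2-fold and the median was 0.36, an amount to be read beside the scaling offset above. The exception was rps10.L, at 121 and 106 CPM against 188 and 188 CPM. Of 123 oxidative phosphorylation genes, 75 were not called, 27 (22.0%) were called higher and 21 (17.1%) lower. Both shares were under those over all genes tested, 33.3% and 32.1%. Of 69 stress response genes, 28 (40.6%) were called lower and 19 (27.5%) higher, against 32.1% and 33.3% over all genes tested. One of the lower ones was gadd45a.L (27.7 and 21.1 CPM against 134 and 133 CPM).

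**Figure D4:**
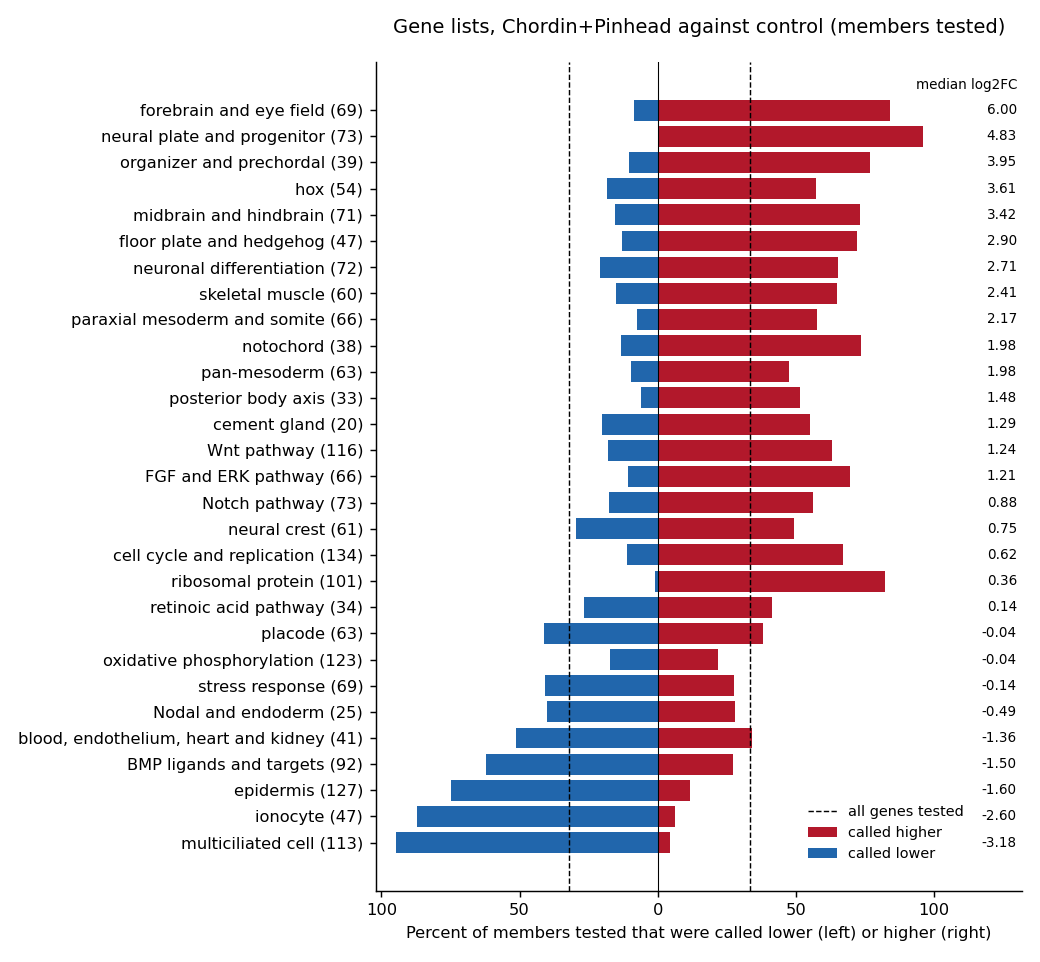
Share of the tested members of 29 gene lists that were called lower (blue, left) or higher (red, right) in Chordin+Pinhead than in control explants, ordered by median log2 fold change (right); numbers in brackets are members tested and dashed lines mark the shares over all genes tested, 32.1% lower and 33.3% higher. Neural plate has the longest red bar (95.9%) and multiciliated cell the longest blue bar (94.7%); placode and oxidative phosphorylation lie near the middle.

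Lists for other cell types that such explants could hold moved in both directions. Of 63 placode genes, 24 (38.1%) were called higher and 26 (41.3%) lower, and of 61 neural crest genes, 30 (49.2%) were higher and 18 (29.5%) lower, against 33.3% and 32.1% over all genes tested. The summed level of the crest list was 3496 and 3573 CPM in Chordin plus Pinhead explants against 3546 and 3112 CPM in controls. The early ectodermal gene foxi4.1.L fell to 1.43 and 0.559 CPM in Chordin plus Pinhead explants against 29.6 and 25.5 CPM in controls (-4.81 ± 0.30, adjusted p = 1.59e-06; -5.63 without library 7). Among crest regulators, foxd3.L rose to 1.06 and 2.41 CPM against 0.121 and 0.197 CPM (3.41 ± 0.65, adjusted p = 0.00138; 2.72 without library 8), and foxd3.S had 0.997 and 1.45 CPM with no count in controls. The call of twist1.S, at 1.25 and 4.92 CPM against 0.302 and 0.722 CPM (2.60 ± 0.72, adjusted p = 0.0125), was lost without library 1 or 8; its value was 1.32 without library 8, 3.25 without library 7 and 3.33 without library 2. The regulator snai2.L fell to 1.99 and 3.41 CPM against 7.79 and 5.58 CPM (-1.30 ± 0.29, adjusted p = 0.00349). Its other copy, snai2.S, was not called (-0.20, adjusted p = 0.707), and its value was 0.10 without library 2 and 0.15 without library 8. The defining gene of migrating crest, sox10, had at most 0.0559 CPM in any of the 4 libraries. Of 77 endoderm and Nodal genes in the table, 52 had too few counts to be tested. Of the 25 tested, 7 (28.0%) were called higher and 10 (40.0%) lower. Their median log2 fold change was -0.49, with -0.19 without library 7 and -0.90 without library 8. The endoderm inducer mixer had at most 0.0656 CPM in the 4 libraries, and the blood factors tal1 and gata1 at most 0.394 CPM. Of 41 genes of blood, endothelium, heart and kidney, 21 (51.2%) were called lower and 14 (34.1%) higher. The higher ones included pax2.L and pax2.S, which are shared with midbrain and eye.

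Some genes had counts in Chordin plus Pinhead explants and none in controls, or the reverse. With no count in controls and at least 1 CPM in both Chordin plus Pinhead libraries there were 137 genes, 106 of them with a gene symbol. Besides fezf1.L and bmpr1b.L, the largest lower bounds belonged to the eye gene six6.L at 60.2 and 65.4 CPM (at least 668-fold), hes3.L, a Notch-related repressor of neural progenitors, at 39.4 and 49.7 CPM (at least 475-fold), and rfx4.L, a neural regulator, at 28.6 and 43.9 CPM (at least 388-fold). In the opposite direction there were 11 such genes, 5 with a symbol, led by the ventral BMP target ventx1.1.S, which had no count in Chordin plus Pinhead explants against 4.22 and 4.66 CPM in controls (at least 50.1-fold lower). Several of these genes behaved likewise with Chordin alone, where fezf1.L stood at 71.1 and 71.7 CPM, six6.L at 131 and 127 CPM and bmpr1b.L at 25.8 and 28.4 CPM, and ventx1.1.S had no count. In contrast rfx4.L had 0.166 and 0.546 CPM with Chordin.

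The copies of a gene did not always move together. Of 6595 pairs of long and short copies with both tested, 2929 (44.4%) had both copies called in the same direction, 1599 higher and 1330 lower, and 474 (7.19%) had them called in opposite directions, with each copy changed at least 2-fold in 157. In 2288 pairs only 1 copy was called. A clear opposite pair was pnp, a purine salvage enzyme: pnp.L rose to 169 and 247 CPM in Chordin plus Pinhead explants against 0.241 and 0.262 CPM in controls (9.65 ± 0.29, adjusted p = 2.58e-08), and pnp.S fell to 9.66 and 4.03 CPM against 77.9 and 82.9 CPM (-3.57 ± 0.29, adjusted p = 7.70e-06; -4.34 without library 7). The cell adhesion gene pcdh10 showed the reverse arrangement, with pcdh10.S at 25.1 and 21.8 CPM against 3.26 and 1.44 CPM and pcdh10.L at 2.06 and 0.727 CPM against 35.2 and 32.5 CPM.

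Tests against the single proteins show where the pair stood apart from each. Against Pinhead explants, 14267 genes (61.7%) were called, of which 7102 (30.7%) were higher and 7165 (31%) lower in Chordin plus Pinhead explants. Against Chordin explants 2476 (10.7%) were called, of which 1494 (6.46%) were higher and 982 (4.25%) lower. The excess of higher over lower genes against Chordin did not hold without library 7, whose levels carry the doubt stated above. The counts against Chordin depended on single libraries: 654 genes in all were called without library 3, 648 without library 4 and 3891 without library 7, against 2476 with all libraries. Notochord genes were higher than with Chordin for 20 of 38 and lower for none; not.L, for example, stood at 10.5 and 11 CPM with both proteins against 0.166 and 0.382 CPM with Chordin (5.25, adjusted p = 5.24e-05; 5.93 without library 4). Muscle genes were higher for 25 of 60 (10 without library 3 or without library 4), floor plate and Hedgehog genes for 25 of 47 (11 and 12) and hox genes for 36 of 54 (10 and 11). The neuronal gene elavl3.L was at 34.8 and 51.8 CPM with both proteins against 2.77 and 3.22 CPM with Chordin (3.85, adjusted p = 3.98e-05), and crabp2.S at 240 and 295 CPM against 7.75 and 9.89 CPM (4.92, adjusted p = 8.78e-06).

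Some anterior genes were lower than with Chordin alone. Forebrain and eye field genes were higher for 25 of 69 (12 without library 3 and 13 without library 4) and lower for 14 (6 without library 3 or without library 4), and cement gland genes were lower for 8 of 20 (2 without library 3 and 4 without library 4). The cement gland product ag1.L was at 836 and 901 CPM with both proteins against 1785 and 1664 CPM with Chordin (-0.99, adjusted p = 0.000699). Multiciliated cell genes were higher than with Chordin for 43 of 113, a count that was 85 without library 8, 27 without library 1 or 2, 6 without library 3 and 7 without library 4. Their level in library 7 carries the doubt stated above. The median log2 fold change of the list against Chordin was 1.42, and 0.50 without library 7. The gene foxj1.L was at 11.3 and 12.6 CPM with both proteins against 0.443 and 0.273 CPM with Chordin (5.04, adjusted p = 8.78e-06), a difference present in both libraries. It does not stand for the list, and floor plate shares it. Among 69 members with a mean of at least 5 CPM with both proteins, the median log2 ratio of library 8 over library 7 was -0.73. Against Pinhead explants, neural plate genes were higher for 64 of 73, and hox genes lower for 37 of 54 and higher for none. The level of Pinhead RNA was not equal in this comparison. With Pinhead alone, libraries 5 and 6 held 1254 and 739 CPM of pnhd.L, more than with both proteins (-1.12, adjusted p = 0.00473). The copy pnhd.S was also lower with both proteins (-3.77, adjusted p = 7.98e-05). Whether these differences from Pinhead explants reflect Chordin or the lower Pinhead level was not tested.

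**Figure D5:**
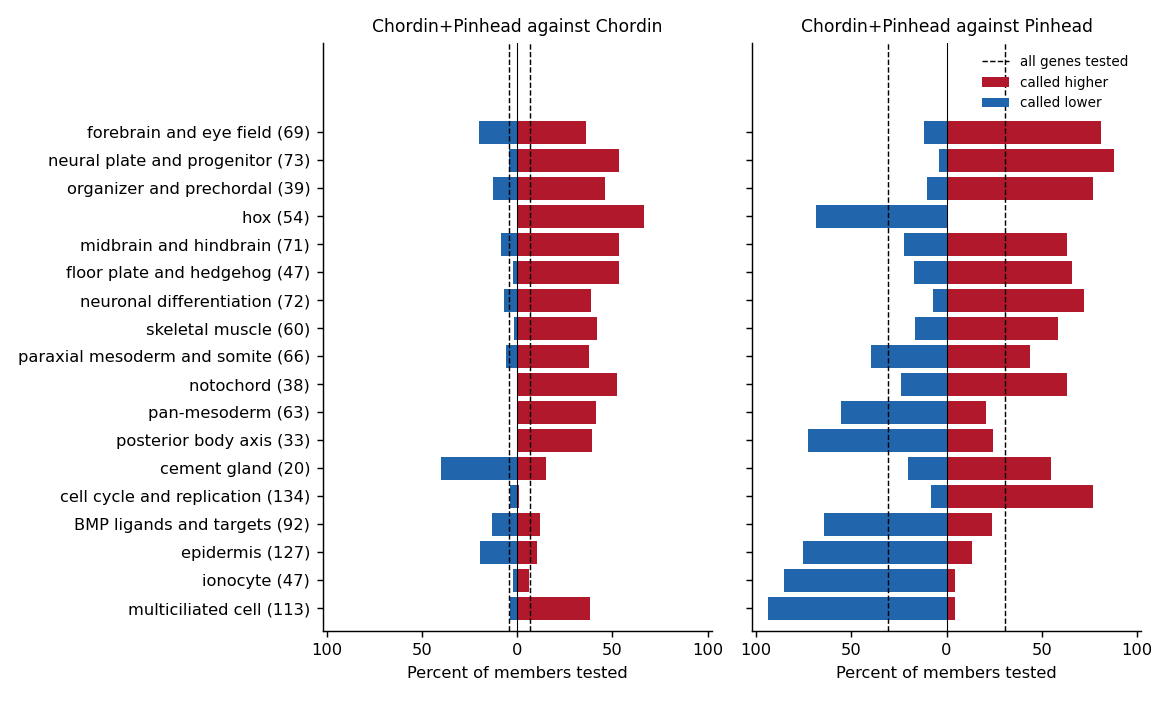
Share of the tested members of 18 gene lists called lower (blue) or higher (red) in Chordin+Pinhead explants than in Chordin explants (left panel) and than in Pinhead explants (right panel), with members tested in brackets; dashed lines are the shares over all genes tested. The hox bar points to higher against Chordin (36 of 54) and to lower against Pinhead (37 of 54), and the cement gland bar is mainly blue against Chordin (8 of 20).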

How the data were processed

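RNA of 8 libraries was sequenced, 2 for each of 4 groups. The table the authors deposited holds raw counts per gene, with 2 sequencing runs of each library in columns of their own. Reads were aligned with HISAT2, per the submitters' processing notes; the sources used here do not give which version, genome, gene models or counter were used. The runs were summed, 1 blank line of the table was not analysed, and genes passed edgeR's filterByExpr (minimum count 10, minimum total 15), leaving 23130 of 45035. All 8 libraries were fitted with edgeR 4.0.16 (R 4.3.3): TMM factors, quasi-likelihood fit, 4 residual degrees of freedom, Benjamini-Hochberg adjustment over all genes tested, threshold 0.05. The same fit gave the comparisons with the single proteins. Each SE was the absolute log2 fold change divided by the square root of the F statistic of the quasi-likelihood test. It thus rests on the spread in all 8 libraries and not on that of libraries 7 and 8 alone. Fold bounds for genes with no count take 3 counts over the group as floor; counting intervals (95%) and floors cover counting error only. The rule for named genes took chrd and pnhd, the key genes of each list, up to 10 called genes a direction with the largest change (mean of at least 5 CPM, libraries not overlapping), 5 a direction with the largest difference in CPM, 5 a direction with the largest ratio between libraries 7 and 8, and up to 5 pairs of copies called in opposite directions; other genes were chosen after their values were seen. Members and gene lists were chosen with earlier results of these data known. DESeq2 1.42.0, other scalings and filters, each run alone, summed copies and leaving out each library were alternatives. Figures used matplotlib 3.10.9.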

Additional observations from a re-analysis of the deposited data

How the results depend on the processing

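Against control, the 15118 calls became 12738 in DESeq2, and 10911 with the copies summed. Total-count scaling gave 8918 genes called higher and 6575 lower, in place of 7691 and 7427, and upper-quartile scaling 8403 and 6912. Leaving out each library in turn gave 6253 to 7972 genes called higher and 6303 to 7485 called lower, with 3699 to 4093 and 4558 to 5279 of at least 2-fold. Summing the long and short copies left 16692 features, of which 2584 were called higher at least 2-fold, in place of 3996 of 23130. These counts rest on different numbers of features, so they cannot be compared directly. Against Chordin the count was 4128 without a filter on low counts (35868 genes tested), and 648 to 3891 over the libraries left out; the cause was not tested. Against Pinhead it was 12520 to 14100. Where a leave-out leaves 1 library in a group, that library is assumed to vary like those of the other groups. No paired analysis was possible because the replicate numbers 1 to 8 are each used once. With 1 CPM standing for 15.2 to 17.9 counts, counting error limits genes under 1 CPM, although some of them were called, such as neurod1.L.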
